A study of Homo sapiens with 24 samples.

Results

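The MYC, MAX and MXD network was followed through 8 groups of lymphoma cell samples. Its 10 members were taken by symbol from the expression table, which holds 25161 symbols in 25575 rows, and each member had 1 row. They were MYC, MYCN, MAX, MXD1, MXD3, MXD4, MXI1, MNT, MLX and MGA. RNA was measured on Clariom D microarrays, which probe the whole transcriptome, in SU-DHL-4, a line of diffuse large B-cell lymphoma (DLBCL), and DG-75, a line of Burkitt lymphoma. Cells of each line were given DMSO as control, 1 µM Entospletinib (Ento), 0.01 µM AZD5153 (AZD), or both at the same doses (Ento+AZD), and were harvested after 72 h. Each group had 3 arrays, numbered 1 to 3, which made 24 in all. Ento inhibits spleen tyrosine kinase (SYK), an enzyme that relays the signal of the B-cell receptor, and AZD is a bivalent inhibitor of the bromodomain and extra-terminal (BET) proteins. No engineered change to the genome of either line was named in the labels, and each lymphoma was represented by 1 line, so that a difference between the lines cannot be told apart from a difference between the lymphomas.

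MYC is a transcription factor that binds the DNA motif CACGTG, the E-box, as a pair with MAX, and raises transcription of genes for ribosomes, metabolism and division. MAX also pairs with MXD1, MXD3, MXD4, MXI1, MNT and MGA, and these pairs recruit co-repressors to the same motif. MLX is a partner of some MXD proteins, of MNT and of the glucose-responsive MONDO factors. Burkitt lymphoma carries MYC joined to an immunoglobulin gene as its hallmark, and BET proteins are known to be needed for transcription of MYC in many blood cancers.

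Promoters of 9 of the members, all except MYC, were found in the RefSeq table of GRCh38.p14. Each ran from 250 bases before to 50 after a start site. Of these 14 promoters, 3 held CACGTG, which reads the same on both strands, and it was held by 7.26% of all 35116 promoters in that table. Counted from the start site, the matches began at -238 in MXD4, -193 in MNT and -50 in MLX. The promoters of MXD1 and MXD4 are shown because these members passed higher over the AZD-containing (AZD and Ento+AZD) arrays of DG-75, and capitals mark the E-box. MXD1 lies at chr2:69914859-69915158 on the + strand and MXD4 at chr4:2262060-2262359 on the - strand.
MXD1: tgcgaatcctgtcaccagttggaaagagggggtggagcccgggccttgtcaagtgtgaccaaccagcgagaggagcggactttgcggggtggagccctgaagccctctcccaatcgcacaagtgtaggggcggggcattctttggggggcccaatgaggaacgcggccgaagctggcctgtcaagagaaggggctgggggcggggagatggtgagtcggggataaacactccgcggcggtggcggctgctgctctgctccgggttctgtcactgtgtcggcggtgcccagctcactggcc
MXD4: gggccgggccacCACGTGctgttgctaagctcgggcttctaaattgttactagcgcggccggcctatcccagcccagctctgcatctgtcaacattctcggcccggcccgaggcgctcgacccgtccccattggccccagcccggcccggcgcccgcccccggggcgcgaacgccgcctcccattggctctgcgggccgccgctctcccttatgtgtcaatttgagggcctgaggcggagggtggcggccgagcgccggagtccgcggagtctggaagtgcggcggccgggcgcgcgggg
The MXD1 promoter had no match in this window. A match describes the letters only, and no binding was measured.

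Array medians lay between 4.89 and 5.14 on the log2 scale, and arrays of a group correlated at 0.981 to 0.992 over all rows. The B-cell markers MS4A1, CD79A, CD79B, PAX5 and CD22 had group means of 8.35 to 12.1 in SU-DHL-4 and 7.12 to 11.3 in DG-75 under DMSO. The 4 T-cell markers reached at most 6.03 in any group and the 4 myeloid markers at most 5.72. In bulk RNA, fewer cells of a kind and less RNA per cell cannot be told apart. The study's methods speak of biologically independent samples for its statistics in general, while the array labels name no cultures behind the replicate numbers, so p-values measure the spread between these arrays, of which part may be technical. A gene passed the test at an adjusted p under 0.05 in limma, with Benjamini-Hochberg adjustment over all rows, and was called if its log2 change was also above 1 in size, which is a fold change of 2.

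**Figure D1:**
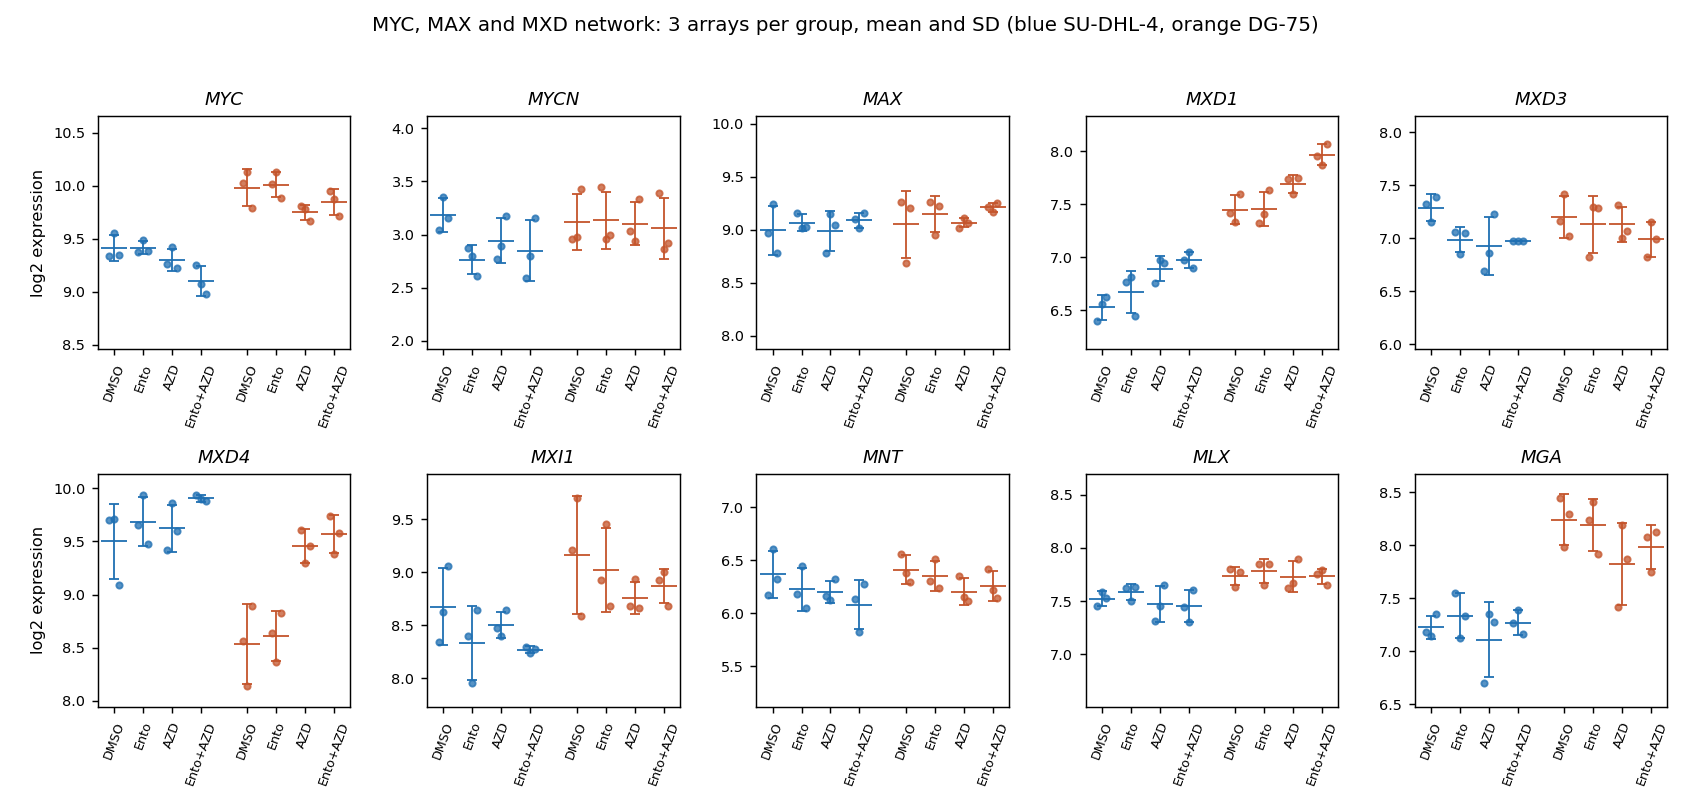
log2 expression (vertical axis) of the 10 members in the 8 groups, with 3 arrays per group as points and the mean and SD as bars, in blue for SU-DHL-4 and orange for DG-75. Every panel spans the same number of log2 units. The MXD4 points of DG-75 rise from 8.14 to 8.89 without AZD to 9.30 to 9.74 with it, while those of MYC shift little within a line.

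Under DMSO the largest differences between the 2 lines were in genes of the repressor side of the network. MGA was higher in DG-75 by 1.02 (SE 0.199), a fold change of 2.02, and MXD1 by 0.92 (SE 0.132). MYC was also higher in DG-75, by 0.57 (SE 0.127), whereas MXD4 was lower by 0.97 on the log2 scale (SE 0.196). Of the 10 members, 3 passed the test higher and 1 lower, against 9.84% and 7.78% of all rows, and MGA was the only member called, where 7.2% of rows were. After quantile normalization MGA was at 0.95 and no longer called, and MXD4, at -1.02, was called in its place. The call of MGA was also lost without SU-DHL-4 DMSO replicate 1 or 2 or DG-75 DMSO replicate 1 or 3, and MXD4 was called without replicate 3 of either DMSO group. Among rows at or above the median level, 15.4% passed higher and 12.4% lower.

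The MYC level was 9.34, 9.55 and 9.35 in the SU-DHL-4 DMSO arrays. In DG-75 DMSO it was 10.02, 10.13 and 9.79. All DG-75 arrays were above all SU-DHL-4 arrays, and the adjusted p of limma was 0.00214. MXD1, a MAX partner that is induced as cells leave the cycle, read 6.40, 6.56 and 6.63 in SU-DHL-4 and 7.42, 7.33 and 7.60 in DG-75. Again no DG-75 array reached down to the other line (adjusted p = 1.34e-05 in limma). MGA, a large MAX partner that also belongs to the polycomb complex PRC1.6, read 7.18, 7.15 and 7.35 in SU-DHL-4 and 8.45, 7.98 and 8.29 in DG-75. The groups did not overlap (adjusted p = 0.000595 in limma).

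MXD4, a repressor of the same family as MXD1, ran the other way. It read 9.70, 9.71 and 9.09 in SU-DHL-4 and 8.57, 8.14 and 8.89 in DG-75, with replicate 3 lowest in the former line and highest in the latter. The groups did not overlap, and the adjusted p of limma was 0.000814. MXI1, another MXD repressor, was on average 0.49 higher in DG-75, with an interval from -0.0026 to 0.98 and an adjusted p of 0.184 in limma. Its SD in DG-75 DMSO, 0.56, was the largest of any member in any group. MYCN, MAX, MXD3, MNT and MLX did not pass, with differences between -0.09 and 0.21. MYCN, a paralogue used mainly in neural tissue, had the lowest place of any member within the table, at the 21.1 percentile of rows, while the others stood between the 66.2 and 96.1 percentiles.

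Beside these differences, 4 of the 5 B-cell markers passed lower in DG-75, where 7.78% of all rows and 12.4% of those at or above the median level did. MS4A1 was at -4.45, CD22 at -1.29, CD79B at -1.16 and CD79A at -0.77, and PAX5, at -0.31, did not pass. None of the T-cell or myeloid markers passed (1 T-cell and 0 myeloid markers had an unadjusted p under 0.05 in limma). The part of the B-cell programme in the member differences was not tested. PVT1, a noncoding neighbour of MYC, was higher in DG-75 by 0.61 (SE 0.169, adjusted p = 0.0126 in limma). All 4 members that passed between the lines kept an adjusted p under 0.05 in limma under each of 6 other settings and without each of the 24 arrays.

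MYC itself did not pass the test under either inhibitor in the fits of each line. With AZD its log2 change in SU-DHL-4 was -0.21 (SE 0.0976) and that in DG-75 -0.20 (SE 0.0854), taken over the 6 arrays of AZD and Ento+AZD against the 6 of DMSO and Ento. The adjusted p of limma was 0.36 and 0.204, so that neither passed. In DG-75 it passed in 1 of 6 other settings, with a prior variance that follows the level (adjusted p = 0.0443), and in 0 of 12 fits with an array left out. The difference between these changes was 0.01, with an interval from -0.23 to 0.25.

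In SU-DHL-4 the MYC level was 9.38, 9.48 and 9.39 under Ento, 9.26, 9.42 and 9.23 under AZD, and 9.26, 9.07 and 8.98 under Ento+AZD. The combination group had the lowest mean of the line, with a change against DMSO of -0.31 (SE 0.138, unadjusted p = 0.0446, adjusted p = 0.34 in limma). In DG-75 it was 10.01, 10.12 and 9.89 under Ento, 9.80, 9.78 and 9.67 under AZD, and 9.95, 9.87 and 9.71 under Ento+AZD. There the mean of the combination lay between those of AZD and DMSO. Same-numbered arrays, which were not shown to be pairs, gave a lower MYC level with AZD in 6 of 6 differences in each line, as did 9.94% of all rows in SU-DHL-4 and 10.9% of those in DG-75. In each line this was 5 of 6 after subtraction of array medians and 4 of 6 after quantile normalization. AZD-containing and AZD-free arrays overlapped in both. Over both lines the change under Ento+AZD was -0.22, with an interval from -0.39 to -0.05 and an adjusted p of 0.0999 in limma. It passed with rows under the median left out (adjusted p = 0.0341 in limma) or with a prior variance that follows the level (0.0396), and it shrank to -0.08 after quantile normalization (adjusted p = 0.607). In order of group means, the MYC level ran from 10.01 in DG-75 Ento over 9.98, 9.85 and 9.75 in the DMSO, Ento+AZD and AZD groups of that line to 9.42, 9.41, 9.30 and 9.10 in SU-DHL-4 Ento, DMSO, AZD and Ento+AZD. Neighbouring groups overlapped in this order except at the step from DG-75 to SU-DHL-4.

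MXD4 was the member with the largest response. In DG-75 its level was 8.64, 8.36 and 8.82 under Ento, close to DMSO. It was 9.61, 9.30 and 9.46 under AZD and 9.74, 9.38 and 9.58 under Ento+AZD. The 6 arrays with AZD lay between 9.30 and 9.74 and the 6 without between 8.14 and 8.89, with no overlap. Such a separation upwards was seen in 0.774% of all rows. The log2 change was 0.94 (SE 0.104), a fold change of 1.92, at an adjusted p of 0.00177 in limma. Of all rows, 1.29% passed higher and 7.09% lower in this comparison (2.1% and 12.2% of rows at or above the median level), and 2 of the 10 members passed, both higher.

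Against DMSO alone, MXD4 rose in DG-75 by 0.92 under AZD (SE 0.147, adjusted p = 0.0471 in limma), where 0.293% of rows passed. Under Ento+AZD it rose by 1.03, a fold change of 2.05 (adjusted p = 0.0162 in limma), where 2.39% of rows passed and 0.833% were called. This made MXD4 the only member called under any treatment. Ento+AZD against Ento gave 0.96 (adjusted p = 0.0199), where 1.66% of rows passed, and these comparisons share arrays. It was lost in 4 of 12 fits with an array left out, those without replicate 1 or 2 of Ento or of the combination, where the adjusted p reached 0.158. The AZD change against DMSO did not pass without the replicate block (adjusted p = 0.0575 in limma), after subtraction of array medians (0.0714), after quantile normalization (0.0522) or in 11 of 12 fits with an array left out. With Ento+AZD it was lost without replicate 1 or 2 of DMSO or of the combination, where the adjusted p reached 0.135. The change over all AZD-containing arrays passed in all 6 settings and without each of the 12 arrays, at 0.89 to 1.01.

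In SU-DHL-4 the MXD4 level was 9.65, 9.93 and 9.48 under Ento, 9.42, 9.86 and 9.59 under AZD, and 9.94, 9.90 and 9.88 under Ento+AZD. The 3 combination arrays lay above every DMSO array, as did those of MXD1, while those of MYC, MXD3 and MXI1 lay below every DMSO array. None of these members passed, and the share of all rows that separate in this way was not counted. For MXD4, arrays with AZD, 9.42 to 9.94, overlapped those without, 9.09 to 9.93, and the change was 0.17 (SE 0.118, adjusted p = 0.583 in limma). Against DMSO alone, 0 members passed under AZD (2 at an unadjusted p under 0.05 in limma) or under Ento+AZD (4) in SU-DHL-4, where 0.207% and 2.36% of rows passed. Ento+AZD against Ento gave 0 members (1 at an unadjusted p under 0.05 in limma) and 0.102% of rows. Over all AZD-containing arrays 0 members passed there (1 at an unadjusted p under 0.05 in limma), against 2.51% of rows. The change of MXD4 in DG-75 exceeded that in SU-DHL-4 by 0.77 (SE 0.153, adjusted p = 0.0313 in limma), a difference that 0.434% of all rows passed. It was not past the threshold without the replicate block (adjusted p = 0.127), and it passed in 8 of 24 fits with an array left out. With AZD, the DG-75 groups, at means of 9.46 and 9.57, stood near the SU-DHL-4 DMSO mean of 9.50.

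MXD1 was higher over the AZD-containing arrays of DG-75, by a smaller step, and did not pass in SU-DHL-4 in the fit as reported. In DG-75 it was 7.32, 7.41 and 7.63 under Ento, 7.73, 7.59 and 7.75 under AZD, and 7.96, 7.87 and 8.07 under Ento+AZD. The combination arrays were all above every other DG-75 array, a separation whose share of all rows was not counted. The lowest AZD array lay just inside the DMSO range. MXD1 did not pass for AZD against DMSO, at 0.24 (adjusted p = 0.424 in limma), for Ento+AZD against DMSO, at 0.52 (adjusted p = 0.0524), or for Ento+AZD against Ento, at 0.51 (adjusted p = 0.0663). It passed over AZD-containing against AZD-free arrays, where the change was 0.38 (SE 0.0861, adjusted p = 0.0215 in limma). That result held in 6 of 6 settings but in only 6 of 12 fits with an array left out, where the adjusted p reached 0.083, and it was lost without replicate 1 of any DG-75 group, without DMSO replicate 3 or without Ento replicate 2. The change of MXD1 under Ento+AZD passed in 5 of 6 other settings against DMSO and in 4 of 6 against Ento. Each passed in 0 of 12 fits with an array left out. In SU-DHL-4 MXD1 was 6.76, 6.81 and 6.45 under Ento, 6.76, 6.98 and 6.94 under AZD, and 6.97, 7.05 and 6.90 under Ento+AZD. The change there was 0.33 (SE 0.104, adjusted p = 0.139 in limma), and the difference between the lines was 0.05, with an interval from -0.21 to 0.30. Same-numbered arrays gave a higher MXD1 level with AZD in 6 of 6 differences in each line, as did 1.89% of all rows in SU-DHL-4 and 2.99% of those in DG-75. The count for MXD1 was the same after subtraction of array medians, where 3.97% and 5.35% of rows did so, and after quantile normalization, where 4.99% and 6.6% did.

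Over both lines Ento+AZD raised MXD1 by 0.48 (SE 0.0921, adjusted p = 0.00242) and MXD4 by 0.72 (SE 0.176, adjusted p = 0.0125 in limma), where 1.18% of all rows passed higher. Both passed in each of 5 other settings and without each of the 24 arrays. Neither passed over both lines under AZD alone, at 0.30 (adjusted p = 0.0684) and 0.52 (adjusted p = 0.101 in limma), where 3.48% of rows passed. The fit over both lines takes 1 treatment effect for the 2 lines. Within the lines, MXD4 under Ento+AZD against DMSO changed by 1.03 in DG-75 and by 0.41 in SU-DHL-4, where it did not pass (adjusted p = 0.292 in limma).

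Of the 5 B-cell markers, MS4A1, CD79B and CD22 also rose in DG-75 with AZD, by 0.86, 0.60 and 0.43. There 1.29% of all rows and 2.1% of those at or above the median level passed higher. CD79A was at 0.33 (adjusted p = 0.0694 in limma) and PAX5 at -0.06, which did not pass, and the median of the 5 was 0.43. With an array left out, each of MS4A1, CD79B and CD22 passed in 7 to 8 of 12 fits. None of the 5 B-cell markers passed in SU-DHL-4 (1 had an unadjusted p under 0.05 in limma). None of the 4 T-cell and 4 myeloid markers passed in either line, and none had an unadjusted p under 0.05. The part of the B-cell markers in the MXD4 and MXD1 changes was not tested.

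**Figure D2:**
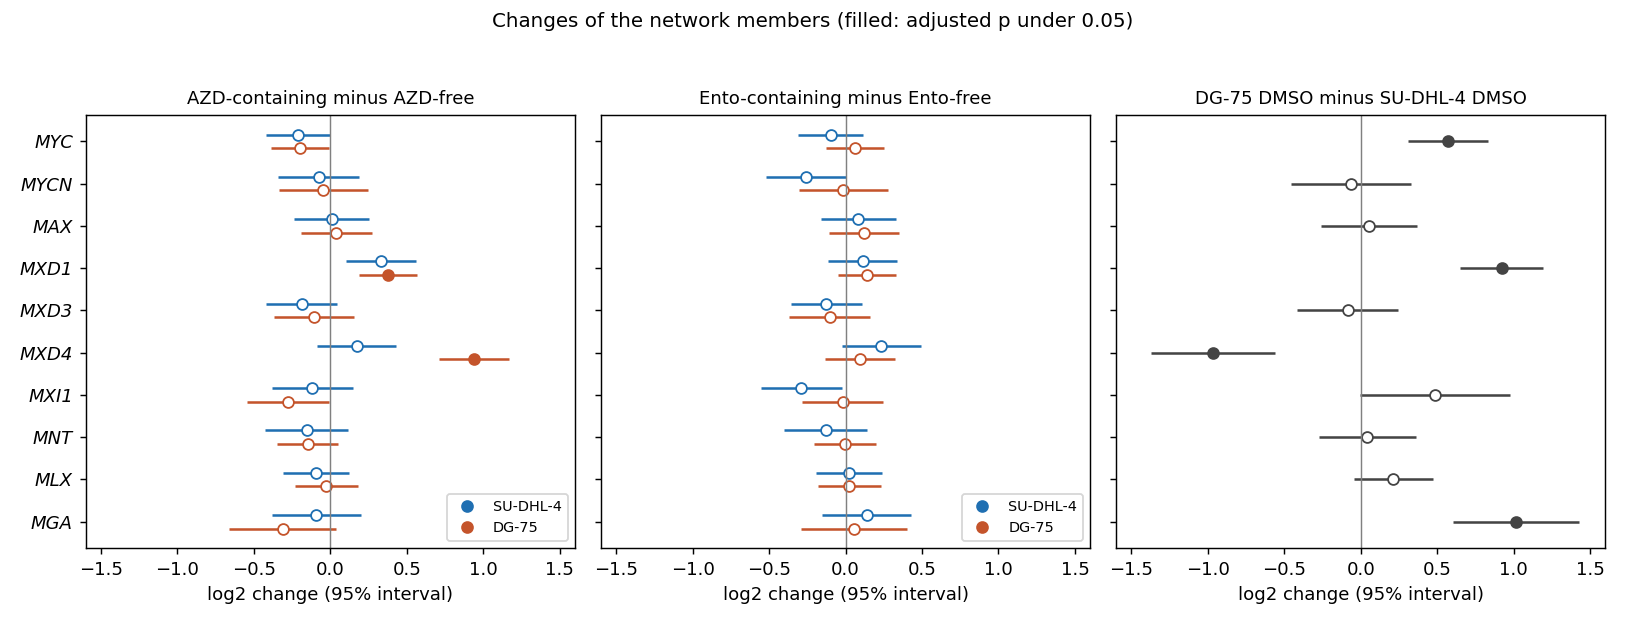
log2 changes (horizontal axis) of the 10 members with 95% intervals, for AZD-containing against AZD-free groups and Ento-containing against Ento-free groups in SU-DHL-4 (blue) and DG-75 (orange), and for DG-75 against SU-DHL-4 under DMSO (grey). Filled points passed the test: MXD4 at 0.94 and MXD1 at 0.38 in DG-75 with AZD, none with Ento, and MYC, MXD1, MXD4 and MGA between the lines.

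The remaining MXD genes did not pass under AZD. MXI1 in DG-75 ranged from 8.59 to 9.70 without AZD and from 8.66 to 8.997 with it, a change of -0.28 (SE 0.121, adjusted p = 0.21 in limma). In DMSO it read 9.20, 9.70 and 8.59 and under AZD 8.69, 8.93 and 8.66, so that the AZD-free arrays were far more spread. In SU-DHL-4 its change was -0.12 (adjusted p = 0.76). MXD3, an MXD protein expressed in dividing cells, changed by -0.11 in DG-75 and -0.19 in SU-DHL-4 (adjusted p = 0.69 and 0.484 in limma). Its SU-DHL-4 levels were 7.15 to 7.39 under DMSO and 6.69 to 7.23 under AZD.

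MAX, the shared partner, stayed within a narrow range. Its changes with AZD were 0.01 (interval -0.24 to 0.25) in SU-DHL-4 and 0.04 (interval -0.19 to 0.27) in DG-75. Its 24 arrays lay between 8.69 and 9.26. MLX, the alternative partner, changed by -0.09 and -0.03 in the same order, and MNT, a broadly expressed antagonist of MYC, by -0.15 in each line. Their adjusted p-values in limma were between 0.405 and 0.91. MGA fell on average by 0.31 in DG-75 on the log2 scale, with an interval from -0.66 to 0.04 (adjusted p = 0.299), and AZD replicate 1, at 7.41, was the lowest of its line. MYCN changed by -0.08 and -0.05 and read 2.59 to 3.44 over all arrays. After quantile normalization the sign turned for MLX in both lines (0.04 and 0.14), for MXD3 (0.04) and MYCN (0.004) in DG-75 and for MGA in SU-DHL-4 (0.03), and the MYC changes shrank to -0.09 and -0.05.

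Under Ento no member passed in either line. Over the 6 Ento-containing arrays against the 6 others, the changes in SU-DHL-4 ran from -0.29 for MXI1 (adjusted p = 0.431) to 0.23 for MXD4 (adjusted p = 0.526 in limma), and 1 member had an unadjusted p under 0.05. In DG-75 they ran from -0.10 to 0.14 and 0 members had an unadjusted p under 0.05. Few rows of any kind passed for Ento, 0.215% of those of SU-DHL-4 and 0.00391% of those of DG-75. Against DMSO alone, Ento gave 0.0547% and 0.00391% of rows and 0 members past the test, with 1 member in SU-DHL-4, MYCN at -0.42, and 0 in DG-75 at an unadjusted p under 0.05 in limma. Adding Ento to AZD changed MXD1 in DG-75 by 0.27 (interval 0.01 to 0.54, adjusted p = 1 in limma) and MXD4 in SU-DHL-4 by 0.28 (interval -0.08 to 0.65, adjusted p = 0.786), which did not pass. In this comparison 0.0313% of rows passed in SU-DHL-4, while DG-75 had 0. Departure of the combination from additivity, where 0% of rows passed, passed the test for 0 members in either line, and 0 members had an unadjusted p under 0.05 in limma. For MXD4 that departure was 0.04 in DG-75, with an interval from -0.42 to 0.49, and for MYC in SU-DHL-4 it was -0.20, with an interval from -0.62 to 0.22.

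**Figure D3:**
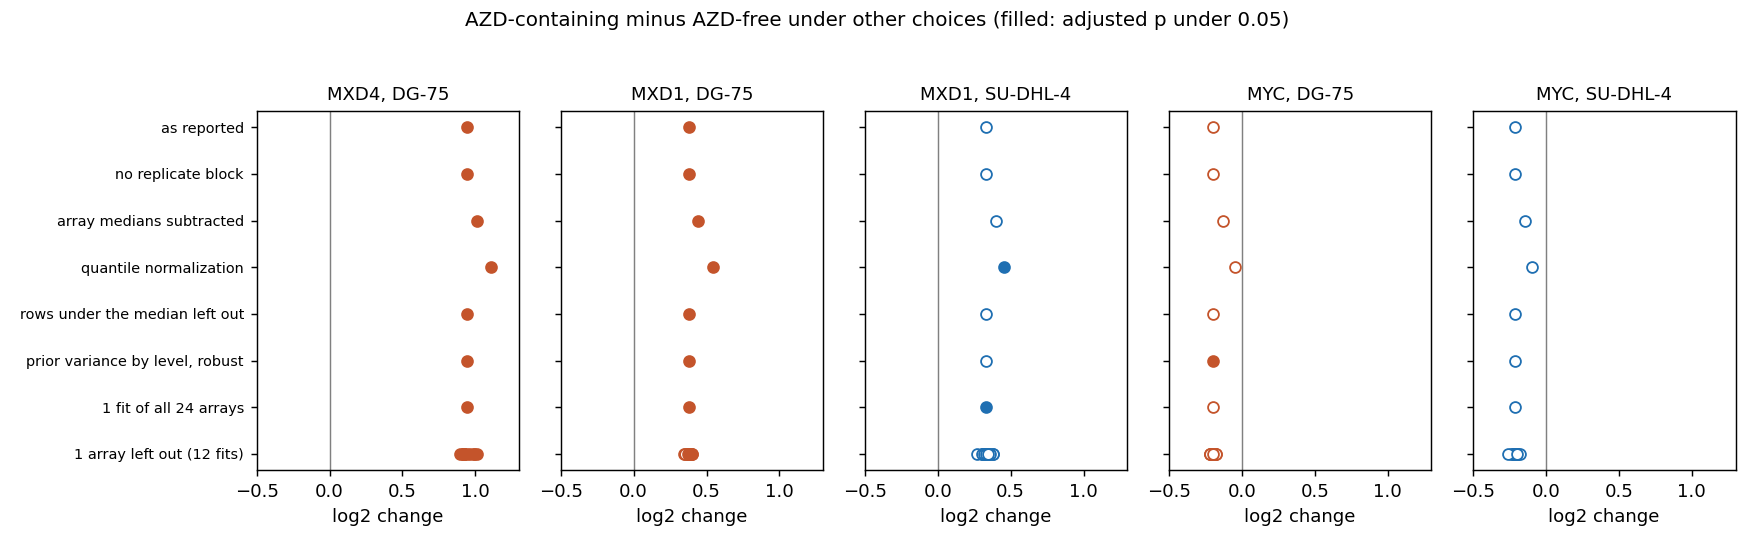
log2 change of AZD-containing against AZD-free groups (horizontal axis) for MXD4, MXD1 and MYC under the fit as reported, 6 other settings and 12 fits with 1 array left out (rows), filled where the adjusted p was under 0.05. MXD4 in DG-75 is filled in every row, and MYC stays below 0 in both lines, at -0.05 in DG-75 after quantile normalization.

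Textbook targets of MYC were followed in 3 groups. Their median was below 0 in each in DG-75 with AZD, and genes of each passed lower. Of 8 cell cycle targets, 6 passed lower, against 7.09% of all rows and 12.2% of rows at or above the median level, with a median of -0.84 against -0.05 over all rows. CDC25A, the phosphatase that opens the way into S phase, fell by 1.37 on the log2 scale (SE 0.18), and PLK4, the kinase of centriole duplication, fell by 1.06 (SE 0.18). Both were called, where 0.696% of all rows were called lower. PLK4 passed in all 6 settings, but its change was -0.995 after subtraction of array medians and -0.91 after quantile normalization, short of the fold change for a call. MCM4 and MCM5, subunits of the replicative helicase, fell by 0.89 and 0.83, and E2F1 fell by 0.85. In SU-DHL-4 3 of the 8 passed lower, with a median of -0.68 against -0.04 over all rows. There 2.37% of all rows and 4.14% of those at or above the median level passed lower. The 3 targets were CDC25A, which fell by 1.04 (SE 0.14), MCM4, which fell by 0.83, and MCM5, which fell by 0.80. Without the replicate block 1 of the 8 passed in SU-DHL-4, and with rows under the median left out 5 did. In DG-75 5 or more of the 8 passed under every setting run.

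Of 14 metabolic targets, 9 passed lower in DG-75, against the same 7.09% and 12.2% of rows, with a median of -0.41. HK2, a hexokinase that starts glycolysis, fell by 0.82 (SE 0.14), SLC19A1, a folate carrier, fell by 0.60 (SE 0.12), HSPD1, a mitochondrial chaperone, fell by 0.45, and ENO1, a glycolytic enolase, fell by 0.38. In SU-DHL-4 0 of the 14 passed, 3 had an unadjusted p under 0.05 in limma, and the median was -0.11. The DG-75 count dropped to 3 after subtraction of array medians and to 4 after quantile normalization. It ranged from 2 to 8 with an array left out, and the medians under these scalings were -0.34 and -0.31. It was 2 without replicate 1 of any of the 4 groups, 4 without Ento replicate 2, and 5 without replicate 3 of DMSO or AZD.

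Of 27 measured nucleolar and ribosome-assembly targets, 6 passed lower in DG-75, where 7.09% of all rows and 12.2% of those at or above the median level did. The median of the targets was -0.30 and 26 of 27 were below 0. The median was also below 0 over all rows, at -0.05, and over rows at or above the median level, at -0.08. LAS1L and IMP4, both factors of ribosomal RNA processing, fell by 0.55 (SE 0.12) and 0.44 (SE 0.09). PA2G4 fell by 0.35 and FBL, the methylase of box C/D particles, fell by 0.33. In SU-DHL-4 0 of 27 passed, 1 had an unadjusted p under 0.05 in limma, and the median was -0.05, which turned to 0.02 and 0.06 under the 2 scalings. The DG-75 count was 2 and 1 under these scalings, 12 with rows under the median left out, and 0 to 6 with an array left out. It was 0 without replicate 1 of DMSO, Ento or Ento+AZD, 2 without DMSO replicate 3, Ento replicate 2 or AZD replicate 1, and 3 without replicate 3 of AZD or Ento+AZD. The difference between the lines was passed by 0 genes of these 3 groups, while 3 nucleolar, 5 metabolic and 0 cell cycle targets had an unadjusted p under 0.05 in limma. Its medians were -0.24, -0.30 and -0.04.

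**Figure D4:**
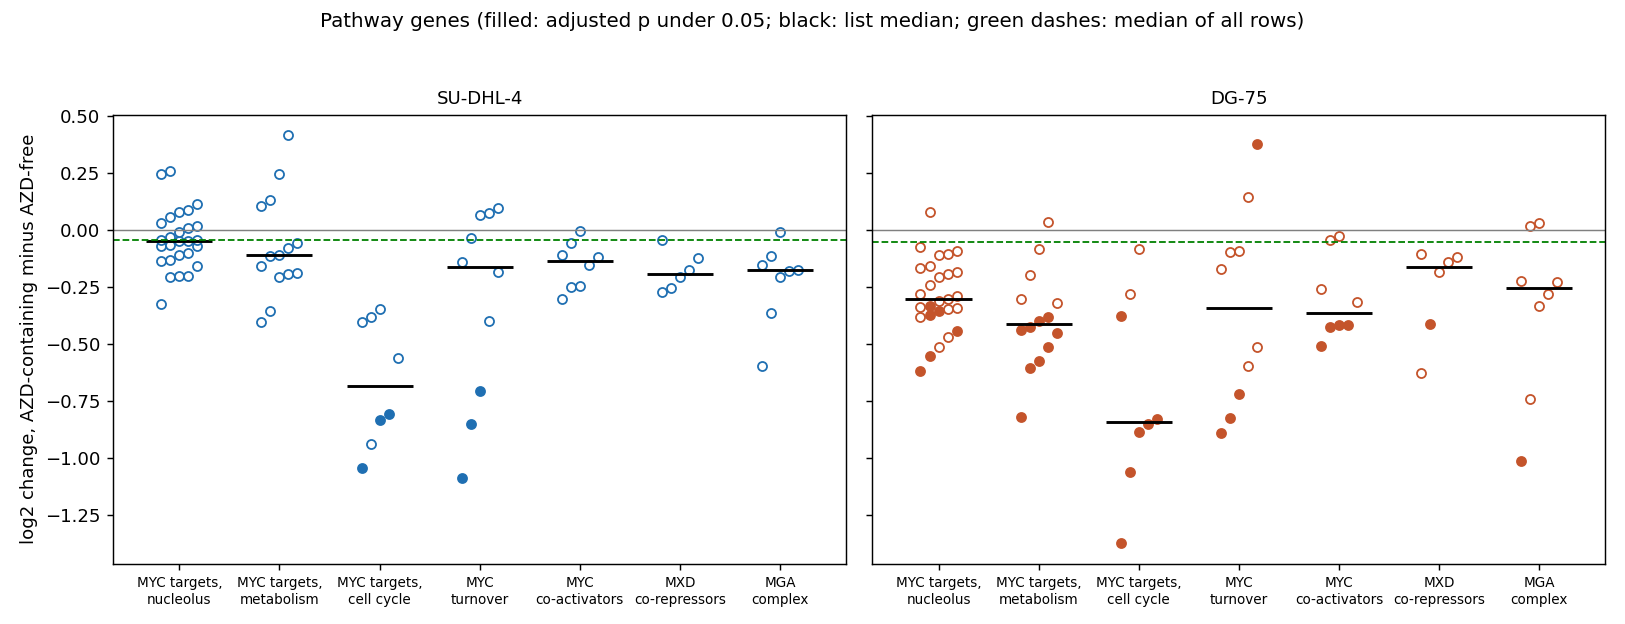
log2 change of AZD-containing against AZD-free groups (vertical axis) for each measured gene of 7 lists (horizontal axis) in SU-DHL-4 and DG-75, with black bars for list medians and green dashes for the median of all rows. Filled points passed the test. The cell cycle targets lie lowest in both lines, at medians of -0.68 and -0.84, and the nucleolar targets sit at -0.30 in DG-75 and near the median of all rows, at -0.05, in SU-DHL-4.

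Under DMSO, DG-75 had 9 of 27 nucleolar targets higher, with a median of 0.45, and 7 of 14 metabolic targets higher, with a median of 0.48. Of all rows 9.84% passed higher, and 15.4% of those at or above the median level did, and the median of all rows was -0.01. DDX18, an RNA helicase, and NOP56, a box C/D particle protein, were higher by 0.89 each, and SLC19A1 and TFRC, the transferrin receptor, by 1.09 and 1.08. The nucleolar count was 9 to 12 under other settings and 7 to 15 with an array left out, lowest without DG-75 DMSO replicate 1 and highest without DG-75 DMSO replicate 2. Of the 8 cell cycle targets 0 were higher and 1 was lower, CCND2, a D-type cyclin, at -1.002 (SE 0.244). It was called, where 3.1% of all rows were called lower, and came to -0.9986, just short of a call, after subtraction of array medians. Of 10 genes of MYC turnover, 3 passed higher in DG-75 and 1 lower. CIP2A, an inhibitor of a MYC phosphatase, and USP28, which removes ubiquitin from MYC, were called higher, at 1.55 and 1.42, where 4.11% of all rows were. HUWE1, a ubiquitin ligase for MYC, passed at 0.44 and GSK3B at -0.43, and neither passed with only the DMSO arrays in the fit.

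Of 8 MYC co-activators 4 passed lower in DG-75 with AZD, where 7.09% of all rows and 12.2% of those at or above the median level did. They were ACTL6A, which fell by 0.51, RUVBL2 and WDR5, which fell by 0.42 each, and RUVBL1, which fell by 0.41. None of the 4 passed after subtraction of array medians or after quantile normalization (highest adjusted p = 0.176 in limma), and each passed in 2 to 4 of 12 fits with an array left out. Of 6 MXD co-repressors, HDAC2 passed, at -0.41 (adjusted p = 0.0497 in limma, held in 4 of 6 settings and 2 of 12 fits with an array left out), and of 8 partners of MGA in PRC1.6, PCGF6, the subunit that defines this complex, passed and was called, at -1.01 (SE 0.20, adjusted p = 0.012 in limma). Of all rows, 0.696% were called lower in DG-75 with AZD. Under the 2 scalings PCGF6 still passed, at -0.94 and -0.90, and was no longer called, and it was called in 6 of 12 fits with an array left out. The counts of 1 of 6 and 1 of 8 were near the share of rows at or above the median level. In SU-DHL-4 0 genes of these 3 lists passed, and 2, 1 and 2 had an unadjusted p under 0.05 in limma. Of 10 genes for MYC protein turnover, SKP2, AURKA and CIP2A fell in DG-75, by 0.72, 0.89 and 0.82, and GSK3B, a kinase that marks MYC for degradation, rose by 0.38. SKP2, AURKA and CIP2A passed lower, where 7.09% of all rows and 12.2% of those at or above the median level did. GSK3B passed higher, where 1.29% and 2.1% did. GSK3B passed in 6 of 6 settings and in 3 of 12 fits with an array left out. In SU-DHL-4 SKP2, PIM1 and AURKA passed lower, at -0.70, -1.08 and -0.85, where 2.37% of all rows and 4.14% of those at or above the median level did. PIM1 was called, where 0.297% of all rows were called lower. Without the replicate block none of these 3 passed (adjusted p = 0.0662, 0.18 and 0.222 in limma), and after quantile normalization PIM1 was at -0.97.

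Under Ento+AZD against DMSO alone, 5 of the 8 cell cycle targets passed lower in DG-75, with CDC25A at -1.71, PLK4 at -1.25 and MCM4 at -1.07. There 1.87% of all rows and 3.28% of those at or above the median level did. In SU-DHL-4 3 of the 8 passed lower, with CDC25A at -1.46 and MCM4 at -1.23, where 2.06% of all rows and 3.6% of those at or above the median level did. AURKA, a kinase that also stabilises MYC proteins, was at -1.05 in DG-75 and -1.33 in SU-DHL-4. It is the only gene of the MYC turnover list given for this comparison, and the others are left out. Without the replicate block CDC25A, MCM4 and AURKA did not pass in SU-DHL-4 (adjusted p = 0.0949, 0.178 and 0.188 in limma).

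TXNIP, a target of MLX and MONDO factors that restrains glucose uptake, rose in DG-75 and was not past the test in SU-DHL-4, as for MXD4. Its group means in DG-75 were 9.24 ± 0.07 under DMSO and 9.29 ± 0.11 under Ento (SD, n = 3). With AZD they were 10.28 ± 0.10, and 10.38 ± 0.13 under Ento+AZD. The change with AZD was 1.07 (SE 0.09, adjusted p = 0.00139 in limma) in DG-75 and 0.08 (SE 0.15, adjusted p = 0.87) in SU-DHL-4, and the difference between the lines, 0.98, passed (SE 0.18, adjusted p = 0.0194). Of all rows, 1.29% passed higher in DG-75 with AZD and 0.434% passed for the difference between the lines. The TXNIP difference was not examined under other settings. ARRDC4, the other target of these factors that was followed, changed by 0.29 in DG-75 (adjusted p = 0.223) and 0.14 in SU-DHL-4. The further network genes MYCL, MLXIP and MLXIPL did not pass in any of these comparisons, and 0 of the 3 had an unadjusted p under 0.05 in limma for AZD in either line. Under Ento no gene of these lists passed in either line, and the MYC turnover list in SU-DHL-4, with 4 of 10, had the most at an unadjusted p under 0.05 in limma.

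Likeness of pattern was described by Pearson correlation over the 24 arrays after the mean of each line was subtracted, among 12788 rows at or above the median level. These arrays share treatments, so no p is given. The rows most like MYC were SREBF2 (0.839), CD81 (0.821), SLC39A9 (0.813), RAD51L3-RFFL (0.791) and SLC2A1 (0.784). The rows most like MXD4 were SLC43A2 and TSPAN31 (0.932 each), SNX29P1 (0.920), SLC7A6 (0.918) and CYB561A3 (0.918). Within the network, MXD1 and MXD4 correlated at 0.747, MXD4 and MXI1 at -0.727, and MYC with MNT at 0.629 and with MXD1 at -0.589.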

How the data were processed

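Total RNA from 24 samples was labelled with biotin and hybridised to Clariom D arrays. The authors deposited 1 table of log2 expression values per gene symbol. Their methods and labels name robust multi-array average (RMA), which corrects background, equalizes arrays and summarises probes, and limma. RMA returns logarithms to base 2, which no source spells out for this table. Versions and a genome build are not given for the array data in the sources used here, and probe identifiers were not used. No detection value was used, so low values cannot be split into expressed and not expressed, and the number of arrays limits the precision. All per-sample columns were assigned by name, which left 0 unused.

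From the deposited log2 values, limma 3.58.1 in R 4.3.3 (lmFit, contrasts.fit, eBayes) was fitted over all 25575 rows, with p-values adjusted by Benjamini-Hochberg over all rows of a comparison. Each line was fitted apart with 4 treatments and the replicate number as a block, because the study's model has a batch term that it does not define. Comparisons over both lines and between lines used all 24 arrays. A gene with several rows was represented by the row with the highest mean. The scripts were checked on simulated data.

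All 10 members are named in the text. Of 9 other pathway lists, counts are given for some comparisons only, with genes called there and up to 4 more by smallest p. In other comparisons, genes that passed or were called may go unnamed. PHB1 was found under the older symbol PHB, and PPAN had no row under that symbol. Markers for B, T and myeloid cells were followed, and a germinal centre list and 1 further marker are not reported here. The members and lists were chosen with earlier results of these data known. Alternatives were no replicate block, array medians subtracted, quantile normalization, rows under the median left out, a prior variance by level, 1 fit of all arrays, no fold change minimum, and each array left out.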

Additional observations from a re-analysis of the deposited data

Results flagged for a closer look

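The response of MXD4 to AZD differed between the lines. The log2 change over AZD-containing against AZD-free arrays was 0.94 in DG-75 and 0.17 in SU-DHL-4, and the difference of 0.77 (SE 0.153) had an adjusted p of 0.0313 in limma, fitted over all 24 arrays. It was the only one of the 10 members past the threshold in this test. Under other settings the difference was 0.77 to 0.83 with adjusted p-values from 0.00483 to 0.127, and with an array left out it was 0.70 to 0.85. The lines also differed in MXD4 under DMSO, by -0.97 in DG-75 against SU-DHL-4. The groups of 3 arrays are too small for the search for single outlying arrays.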

How the results depend on the processing

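Over 220 member results and 4608 values under the alternatives, 4545 stayed on their side of the threshold, 45 no longer passed and 18 passed newly. The sign turned in 296 of the 4545, with an array left out in 235 and under another scaling in 61, and 0 of these were past the threshold before or after. The counts that moved by more than 1.5 times were as follows, and the cause was not tested. Without the replicate block 0 members passed for AZD against DMSO in DG-75 and 0 for the difference between the lines in the response to AZD, in place of 1 each. No other member moved across the adjusted p threshold without the block. The replicate numbers were not shown to pair the arrays: in SU-DHL-4, 12 of 18 same-numbered pairs of deviations correlated above 0.1 (median 0.15), and in DG-75 7 of 18 did (median 0.04). Over all rows, the count for AZD-containing arrays fell without the block from 643 to 168 in SU-DHL-4, and it was 2141 with and 2214 without in DG-75. For DG-75 against SU-DHL-4 under DMSO, 4507 rows passed, and 4626 with the replicate block. With array medians subtracted, 0 members passed for AZD in DG-75, 2 for Ento+AZD in DG-75 (1 as reported) and 1 for AZD over both lines (0 as reported), and 1 was called for AZD-containing arrays and 1 for the combination against Ento in DG-75 (0 each as reported). Quantile normalization gave the same counts for these, with 2 past the threshold for the combination against Ento in DG-75 (1 as reported) and 1 for AZD-containing arrays in SU-DHL-4 (0 as reported). The count was 2 for Ento+AZD against DMSO and 2 for the combination against Ento in DG-75 with rows under the median left out, with the prior variance by level and in 1 fit of all 24 arrays. Rows under the median left out also gave 1 for AZD over both lines, and 1 fit of all arrays gave 1 for AZD-containing arrays in SU-DHL-4. With no fold change minimum, 1 member was called for AZD and 1 for the combination against Ento in DG-75, 2 for AZD-containing arrays in DG-75, 2 for Ento+AZD over both lines, 1 for the difference between the lines (0 each as reported), and 4 between the lines under DMSO (1 as reported). With 1 array left out, 0 to 1 members passed for AZD, for Ento+AZD and for the combination against Ento in DG-75, 1 to 2 for AZD-containing arrays in DG-75, and 0 to 1 for the difference between the lines. The called members were 0 to 1 for AZD-containing arrays, Ento+AZD and the combination against Ento in DG-75, and 0 to 2 between the lines under DMSO. Subtraction of array medians moved the median of all rows by over 0.1 for comparisons with DMSO in SU-DHL-4, for example from -0.08 to 0.05 for Ento+AZD, where MYC went from -0.31 to -0.18.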
